A study of Aedes aegypti with 6 samples.

Results

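Marker genes of sex, testis and flight muscle of the yellow fever mosquito Aedes aegypti were followed across whole-body pools of adults and larvae. They are 7 of the 19804 gene identifiers in the count tables, taken by identifier from a given list. The genes are Nix (AAEL022912), myo-sex (AAEL021838), beta-2 tubulin (AAEL019894), myo-fem (AAEL005656), the female flight muscle actin Act-4 (AAEL001951), doublesex (AAEL009114) and fruitless (AAEL024283). The count tables carry identifiers without names, and the names are those that go with the list. The adult group held 3 pools and the larval group 3 pools, 1 pool of 10 mosquitoes for each stage at each of 3 collection sites in Eastern India, K1 (location 1), K3 (location 2) and C (location 3). No treatment, strain or age is given, and neither is the sex of the mosquitoes in a pool. No pool of known sex was among the libraries, so the values below describe marker levels and give no number of males or females.

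In Aedes aegypti, sex is set by a dominant male-determining locus on chromosome 1 in place of a distinct Y chromosome. Nix lies in that locus and is required for male development. It acts upstream of the sex-specific splicing of doublesex and fruitless, a pair of transcription factor genes that direct body form and mating behaviour. Myo-sex is a myosin heavy chain gene in the same locus, transcribed mainly in male pupae and adults and needed for male flight. Myo-fem, a related myosin heavy chain gene outside the locus, and Act-4 serve the flight muscle of females. Beta-2 tubulin is a tubulin of the male germ line, where it builds the sperm tail.

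Reads counted for a single gene numbered 3271618 to 10450701 in the adult libraries and 12049243 to 18328454 in the larval libraries. Unaligned reads made up 39.8%, 22.5% and 44.4% of the adult libraries from K1, K3 and C, and 55.4 to 58.7% of the larval libraries. Reads that aligned to several places, which were counted for no gene, made up 36.0%, 62.2% and 39.3% of the adult libraries from K1, K3 and C, and 11.5 to 16.2% of the larval libraries. Tubulins, actins and myosin heavy chains are families of similar genes, so the levels of those 4 markers are uncertain to the extent that such reads were lost. Levels are given as CPM, counts scaled to 1000000 reads counted for genes. Gene lengths were not used here, so CPM of different genes are not compared. Where a gene had no read, the limit given is the CPM of 3 counts in that library. These limits and all intervals cover counting error only, and not the spread between pools. Reads amplified from the same fragment are not independent, so the limits and intervals may be too narrow even for counting error. In whole-body RNA, fewer cells of a type and less RNA per cell cannot be told apart.

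The male determiner and doublesex had no read at either stage. Nix had 0 counts in all 6 libraries, with limits of 0.287, 0.917 and 0.688 CPM in K1, K3 and C adults, and of 0.218, 0.249 and 0.164 CPM in the larvae. Doublesex also had 0 counts in all 6 libraries, under the same limits. They were 2 of 10912 identifiers with no count in any library. At this depth a level below the limits would not have been detected, so these values show neither the presence nor the absence of either transcript.

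Of the male-associated markers, myo-sex was counted in adults only, at a level close to the limit. It had 10, 0 and 8 reads in K1, K3 and C adults, which were 0.957, 0 and 1.83 CPM, and 0 reads in all 3 larval libraries. The K1 and C adult pools were above every larval library, while the K3 adults were at 0 with a limit of 0.917 CPM. That limit lies just under the 0.957 CPM of K1 (exact 95% interval 0.459 to 1.76), so K3 could not be told from K1 at this depth. Summed over the stages, the 18 adult reads were 0.995 CPM, at least 14.6-fold higher than the larval floor of 3 counts over the 3 libraries. A two-sided exact permutation test of the CPM over the 3 adult and 3 larval pools gave p = 0.4. The gene did not pass the low-count filter and has no value in the model across genes. Fitted with no filter, its edgeR adjusted p was 0.339. Of the 8 reads at C, 7 were in the forward-strand column and 1 in the reverse, against 5 and 5 at K1.

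Beta-2 tubulin was high in the K1 and C adults and had no read in the K3 adults. It had 1015, 0 and 830 reads in K1, K3 and C adults, against 59, 101 and 23 reads in the larvae of the same sites. In CPM the adults were at 97.1, 0 and 190, and the larvae at 4.29, 8.38 and 1.25. The K1 and C adult pools were above every larval pool and the K3 adult pool was below every one, so the stages overlapped. Against the limit of 0.917 CPM at K3, the gene was at least 106-fold higher in the K1 adults and at least 208-fold higher in those of C. These folds cover counting error only. Fewer genes had any count in the K3 adults (3305) than in the K1 (5459) and C adults (5805), so over all genes a 0 was more common there. Whether this held for genes at the level of beta-2 tubulin in the K1 and C adults was not tested. Among genes with a count, it ranked 407th of 5459 in the K1 adults and 294th of 5805 in those of C. In the larvae it ranked 3277th of 5117, 1915th of 7807 and 4979th of 6230 at K1, K3 and C.

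**Figure D1:**
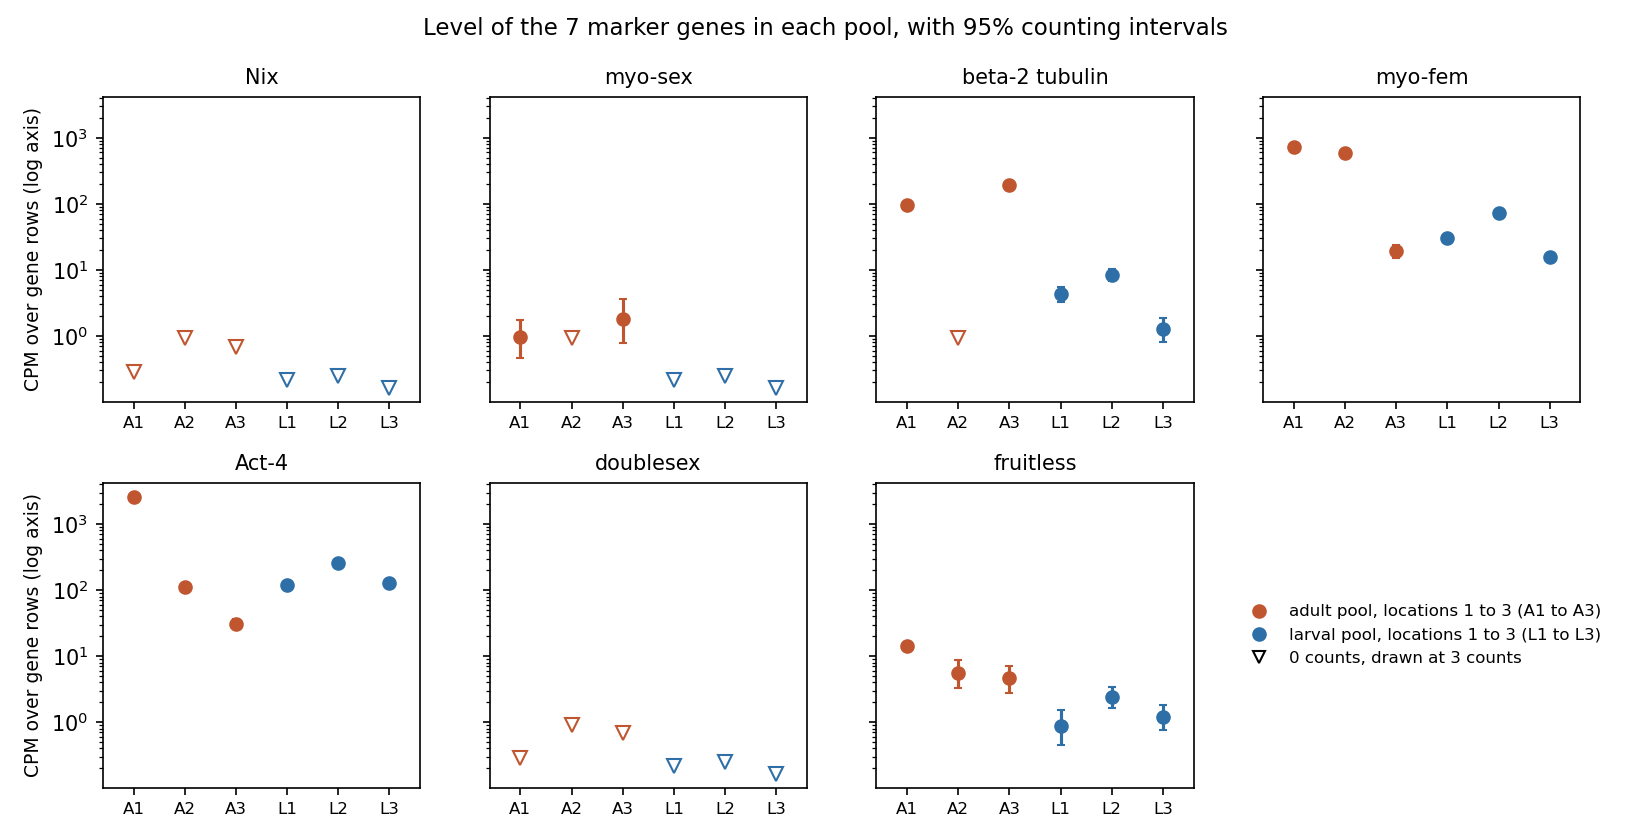
Level of each marker gene in CPM on a log axis, in the adult pools (A1 to A3, from K1, K3 and C in turn) and the larval pools (L1 to L3). Points are single pools with exact 95% counting intervals, and open triangles are pools with 0 counts drawn at the CPM of 3 counts. Nix and doublesex were at 0 in all 6 pools, and the K3 adults had 0 counts of beta-2 tubulin but 581 CPM of myo-fem.

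Of the female-associated markers, myo-fem was high in the K1 and K3 adults and low in the C adults. It was at 738, 581 and 19.3 CPM in K1, K3 and C adults, from 7713, 1901 and 84 reads, and at 30.9, 71.9 and 15.5 CPM in the larvae. The K1 and K3 adult pools stood above all larval pools, while that of C lay among them. The gene was 38.3-fold higher in the K1 adults than in those of C and 30.2-fold higher in the K3 adults than in those of C. These ratios compare single libraries, and no pool was repeated within a stage and location.

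Act-4 was high in 1 adult pool. It was at 2576, 113 and 30.5 CPM in K1, K3 and C adults, from 26920, 369 and 133 reads, and at 118, 256 and 130 CPM in the larvae. Only the K1 adult pool was above the larvae. The C adults were below all 3 larval pools, and the K3 adults (exact 95% interval 102 to 125) could not be told from the K1 larvae (112 to 124) within counting error. The highest adult level was 84.4 times the lowest, against 2.17 times among the larvae. In the K1 adults the gene ranked 100th of 5459 counted genes, and in those of K3 and C it ranked 400th of 3305 and 791st of 5805. In the larvae it ranked 524th of 5117, 289th of 7807 and 462nd of 6230 at K1, K3 and C. All 3 larval pools had reads of this gene, from 1625 to 3088 of them.

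Fruitless had at most 147 reads in a library, and its stages did not overlap. It ranked from 1285th of 5459 counted genes in the K1 adults to 4844th of 5117 in the K1 larvae. It had 147, 18 and 20 reads in K1, K3 and C adults, which were 14.1, 5.50 and 4.59 CPM, and 12, 29 and 22 reads in the larvae, which were 0.872, 2.41 and 1.20 CPM. Every adult pool was above every larval pool, with an exact permutation p of 0.1 (two-sided), below which 6 libraries in this split cannot go. Among the 5030 genes that passed the filter, 10.4% had all 3 adult values above all 3 larval values. The reads of fruitless were unevenly split between strands in some libraries, with 0 of 18 in the forward column in the K3 adults and 11 of 12 in the K1 larvae, against 70 of 147 in the K1 adults. In the forward column alone the K3 adults were therefore at 0, below the larvae, and the stages overlapped.

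The comparison of adults with larvae, fitted across all genes, called none of the markers. Of the 7 genes, 4 passed the low-count filter, and 0 of the 4 had an edgeR adjusted p under 0.05, where 9.84% of the 5030 genes tested were called, 3.14% as higher in adults and 6.70% as lower. The 4 had unadjusted edgeR p-values of 0.0164 to 0.0955, of which 2 were under 0.05, as were those of 1182 of the 5030 genes. DESeq2's Wald test called 3 of the 4 and gave no p for Act-4, where it called 7.02% of genes as higher in adults. With no low-count filter edgeR also called 3 of the 4, where 3.31% of 8892 genes were called as higher in adults. The p-values of that fit are those of a normal curve for the fold change over its SE. They thus take little account of each gene's own spread between pools. The SE of Act-4 was 0.571 in that fit, against 1.38 in the designed fit. Beta-2 tubulin averaged 95.8 ± 95.2 CPM in adults and 4.64 ± 3.58 CPM in larvae (SD, n = 3 each), a log2 fold change of 4.46 with an SE of 1.70 (edgeR adjusted p = 0.142). Myo-fem averaged 446 ± 378 CPM in adults and 39.4 ± 29.1 CPM in larvae (SD, n = 3 each), a log2 fold change of 3.43 with an SE of 1.17 (edgeR adjusted p = 0.102). Act-4 averaged 906 ± 1446 CPM in adults and 168 ± 76.7 CPM in larvae (SD, n = 3 each), a log2 fold change of 2.57 with an SE of 1.38 (edgeR adjusted p = 0.322). Fruitless averaged 8.05 ± 5.23 CPM in adults and 1.49 ± 0.808 CPM in larvae (SD, n = 3 each), a log2 fold change of 2.47 with an SE of 1.10 (edgeR adjusted p = 0.214).

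The median fitted value over all genes tested was -0.41 on the log2 scale, and the markers were not tested against it as a group. The spread between adult pools was nearly as large as the adult mean for beta-2 tubulin and larger than the mean for Act-4. The exact permutation p of the CPM was 0.4 for beta-2 tubulin, 0.3 for myo-fem and 1 for Act-4. With location as a block, myo-fem passed (log2 fold change 2.69, edgeR adjusted p = 0.0411, where 3.52% of genes were called as higher in adults), and Act-4 changed direction (-0.24, edgeR adjusted p = 0.953). Without the K1 adults, Act-4 was also lower in adults, at a log2 fold change of -1.45 (edgeR adjusted p = 0.334). Without the K3 adults, which had no beta-2 tubulin read, beta-2 tubulin passed at 5.10 (edgeR adjusted p = 0.0385, where 2.15% of genes were called as higher in adults). Without the C adults, the adult pool with the lowest myo-fem level, myo-fem passed at 3.98 (edgeR adjusted p = 0.0399, where 1.43% were).

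**Figure D2:**
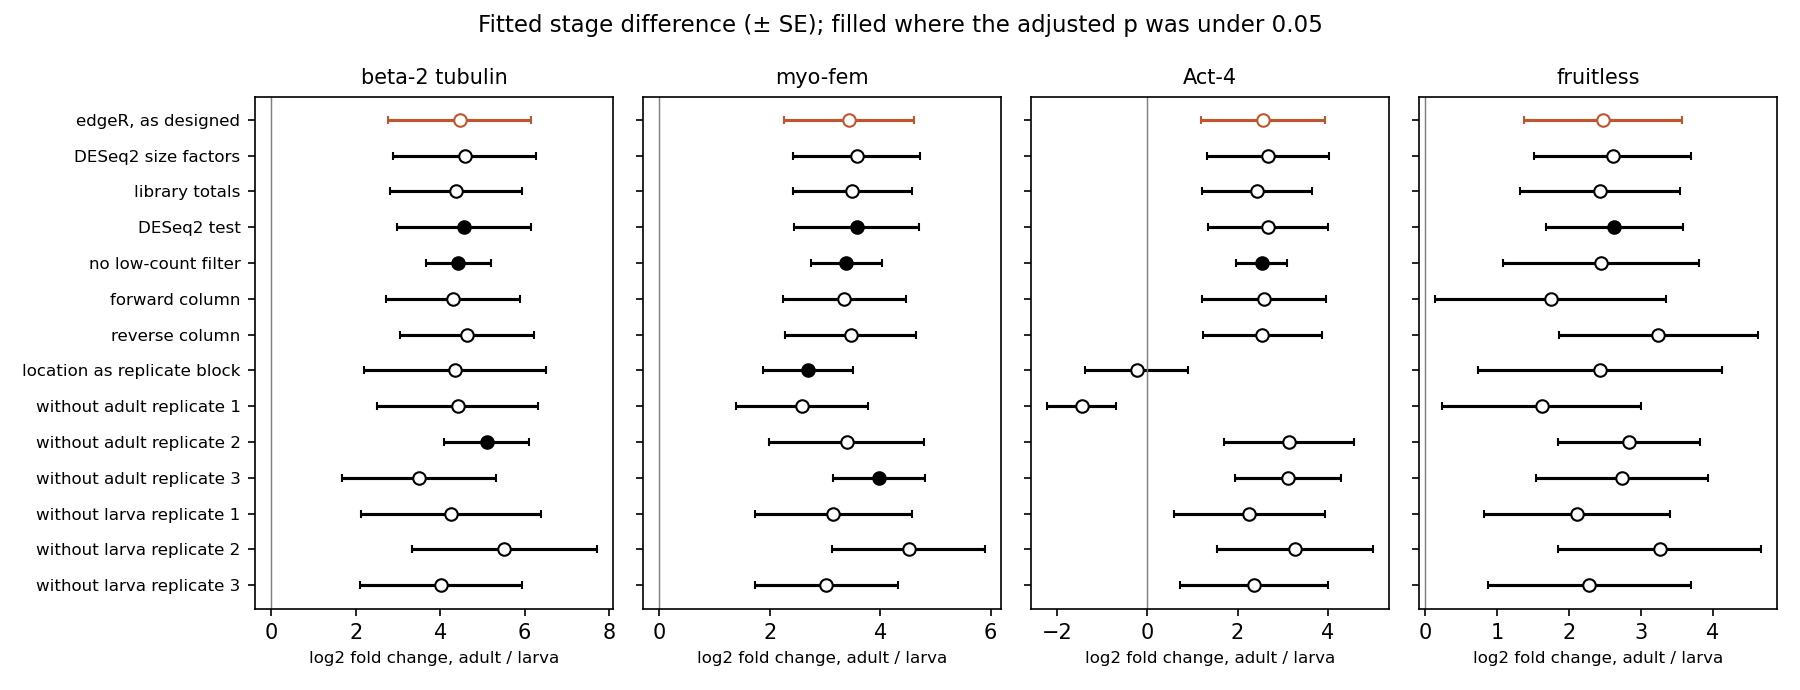
Fitted log2 fold change of adults over larvae with its SE for the 4 genes that passed the low-count filter, under the designed fit (top row, coloured) and each alternative. Filled points had an adjusted p under 0.05. The value of Act-4 lay below 0 with location as a block (-0.24) and without the K1 adults (-1.45), and the other 3 genes stayed above 0 in every fit drawn.

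Taken location by location, the adult level relative to the larval level differed in direction for 2 of the genes. Beta-2 tubulin was 22.6 times as high in adults as in larvae at K1 (exact 95% interval 17.4 to 29.97) and 152 times at C (100.4 to 241), and it was at least 9.14-fold lower in adults at K3. Act-4 was 21.8 times as high in adults as in larvae at K1 (20.7 to 22.9), and the adult level was 0.440 of the larval level at K3 (0.394 to 0.490) and 0.236 at C (0.196 to 0.281). Myo-fem was 23.9 times as high in adults at K1 (21.7 to 26.4) and 8.08 times at K3 (7.46 to 8.77). At C its ratio was 1.24 with an interval of 0.960 to 1.59 that includes equal levels. Fruitless was higher in adults at every location, at 16.1 times (8.96 to 31.9), 2.29 times (1.20 to 4.26) and 3.82 times (1.98 to 7.34) the larval level at K1, K3 and C. With 1 pool per stage and location, whether these ratios differ between locations was not tested.

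**Figure D3:**
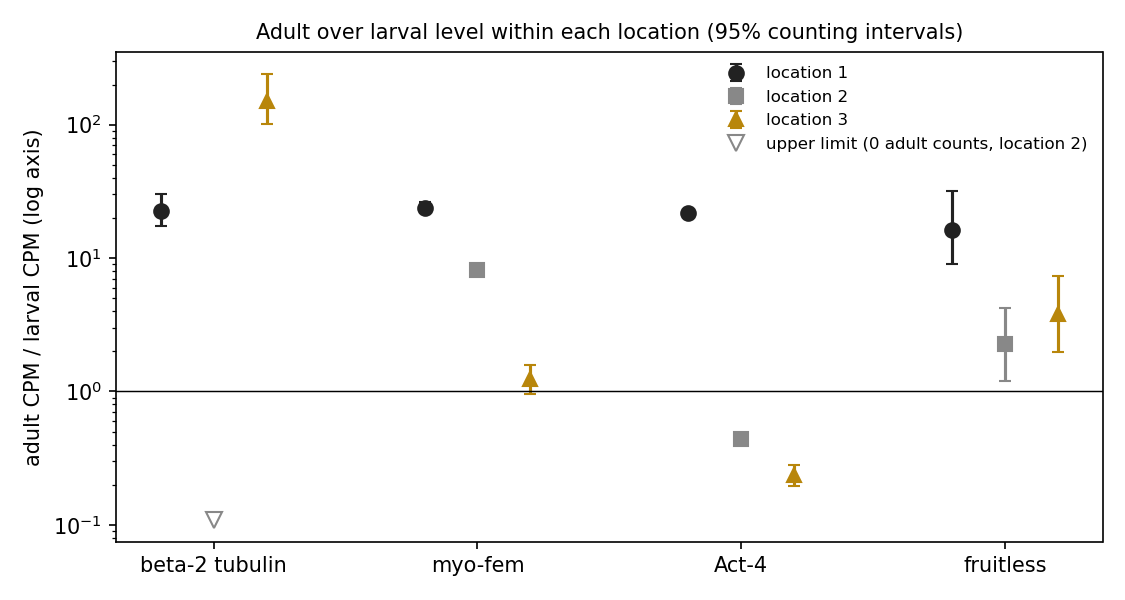
Adult CPM over larval CPM within each of the 3 locations, on a log axis, for 4 marker genes, with exact 95% counting intervals. Fruitless was above 1 at all 3 locations, Act-4 was above 1 at K1 only (21.8), and the open triangle marks beta-2 tubulin at K3, where adults had 0 counts and the ratio was at most the value drawn.

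The 3 collection sites were then compared with the stages averaged. The edgeR F test over the locations called 0 of the 4 markers tested, where 0.0795% of the 5030 genes, or 4 genes, were called. Its adjusted p was 0.975 for myo-fem and 1.00 for Act-4, beta-2 tubulin and fruitless. The unadjusted p was 0.00819 for myo-fem and 0.0238 for Act-4, the 2 markers under 0.05, and 105 genes in all had an unadjusted p under 0.05. DESeq2's likelihood ratio test also called 0 of the 4. Without the K1 larvae, both myo-fem and Act-4 passed, where 0.601% of genes were called, and both passed with no low-count filter, where 0.753% were. Without those larvae, K1 was left with its adult pool alone, at 738 CPM of myo-fem and 2576 CPM of Act-4. That fit also had fewer residual degrees of freedom than the 2 of the fit to all libraries. It thus cannot tell a difference between sites from the level of that single adult pool. Whether the p-values of the location fit with no low-count filter take account of each gene's own spread was not tested. Myo-fem and Act-4 took the same order in the adults, K1 above K3 above C, and both were highest at K3 in the larvae. Beta-2 tubulin in adults had its highest level at C, where both of these had their lowest adult level.

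Shares of a pair of markers within a library do not depend on how libraries are scaled. They do depend on the lengths of the genes, so a share is compared between libraries only. Of the reads of beta-2 tubulin and Act-4 together, beta-2 tubulin held 3.63% (exact 95% interval 3.42 to 3.86), 0% and 86.2% (83.8 to 88.3) in K1, K3 and C adults. It held 3.50%, 3.17% and 0.960% in the larvae. The 0 of 369 reads in the K3 adults allow a share of up to 0.813%. The C adult pool stood far above the rest, and the K1 adult pool lay next to the K1 and K3 larvae although its level of each gene was over 10 times theirs. The adult mean was 29.9% ± 48.7 and the larval mean 2.54% ± 1.38 (SD, n = 3 each; two-sided exact permutation p = 0.7).

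Of the reads of myo-sex and myo-fem together, myo-sex held 10 of 7723 (0.129%, exact 95% interval 0.0621 to 0.238), 0 of 1901 and 8 of 92 (8.70%, 3.83 to 16.4) in K1, K3 and C adults. It held 0 of 425, 0 of 866 and 0 of 285 in the larvae, which allow shares of up to 0.706%, 0.346% and 1.05%. The interval at C lies above those of the other adult pools, and it was the adult pool with the fewest myo-fem reads. The two-sided exact permutation p between stages was 0.4.

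The pair of female-associated markers, added after the values were seen, did not keep a fixed ratio either. Of the reads of myo-fem and Act-4 together, myo-fem held 22.3%, 83.7% and 38.7% in K1, K3 and C adults, and 20.7%, 21.9% and 10.7% in the larvae. The exact 95% intervals were 21.8 to 22.7, 82.2 to 85.2 and 32.2 to 45.5 in the adults and spanned 9.57 to 23.2 over the larvae. The K1 adults overlapped the K1 and K3 larvae in their intervals, while the other adult pools were above all larvae. The pair was chosen for its values, so no test is given.

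**Figure D4:**
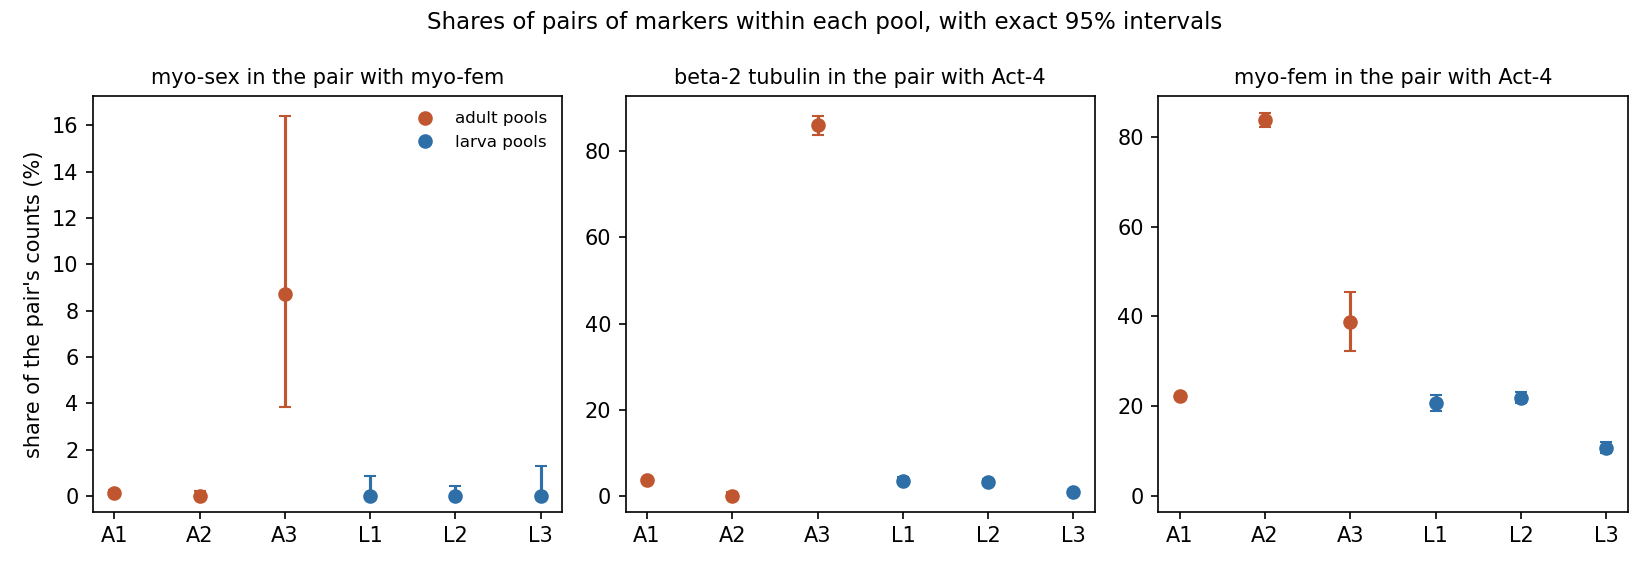
Share of the first gene in the summed counts of a pair of markers, in percent, for the adult pools (A1 to A3, from K1, K3 and C in turn) and the larval pools (L1 to L3), with exact 95% intervals. The C adults had the highest shares of myo-sex (8.70%) and of beta-2 tubulin (86.2%), and the K3 adults had the highest share of myo-fem against Act-4 (83.7%).

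Put together by pool, the K1 adults had reads of all 5 markers that had any, with the highest levels of myo-fem, Act-4 and fruitless. The K3 adults had myo-fem, Act-4 and fruitless, and 0 reads of both male-associated markers. That library had 3271618 gene counts, 62.2% of reads at several places and the fewest genes with a count (3305). The C adults had reads of all 5, with the highest levels of myo-sex and beta-2 tubulin and the lowest adult levels of myo-fem and Act-4. The 3 larval pools had reads of beta-2 tubulin, myo-fem, Act-4 and fruitless, and none of myo-sex. Sex makeup, age and feeding state of the pools, and the part of the reads lost at several places, cannot be told apart in these values.

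For each of the 4 markers that passed the filter, the gene with the most similar profile over the 6 libraries was found by Pearson's r of log2(CPM + 0.5) among 2028 or 2029 other genes with a mean of at least 10 CPM. The files do not name these genes. AAEL009451 followed beta-2 tubulin (r = 0.97 over 6 libraries), at 89.6, 0 and 444 CPM in K1, K3 and C adults and 6.61, 19.4 and 5.67 CPM in the larvae. The gene was picked for its likeness, so its 0 in the K3 adults is not separate evidence about that pool. AAEL002263 followed myo-fem (r = 0.98), at 47.3, 47.4 and 8.49 CPM in the adults and 13.2, 11.6 and 7.58 CPM in the larvae. AAEL026967 followed fruitless (r = 0.97), at 103, 60.8 and 62.2 CPM in the adults and 9.30, 22.3 and 13.7 CPM in the larvae, and AAEL014630 was the nearest to Act-4 with a lower r of 0.90. The libraries share their stage and depth differences, and these are descriptions with no test. Among the members themselves, r was 0.78 for myo-fem with fruitless, 0.67 for myo-fem with Act-4, 0.53 for Act-4 with fruitless, 0.47 for beta-2 tubulin with fruitless, 0.18 for beta-2 tubulin with Act-4 and -0.08 for beta-2 tubulin with myo-fem.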

How the data were processed

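The submitters' processing notes list FastQC, fastp, cutadapt, STAR and edgeR without versions. The genome build is not given in the sources used here. Sequencing was paired-end with 150-base reads, per the labels' protocols. The deposited gene tables hold raw counts per gene for both strands, forward and reverse, after 4 summary rows (unaligned, several places, no gene, several genes), which were left out of totals and tests and whose reads made up 69.3 to 92.3% of each table. The column for both strands was used; forward over reverse totals were 1.15 to 1.24. For the 7 genes both strand columns summed to it exactly. None of the 19804 identifiers matched the RefSeq table of AaegL5.0, so the junction tables, which give positions only, were not used. The planned tests on junction reads and the marker lists matched by description were not run, and no sequence is printed.

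The genes and lists were chosen with earlier results of these data known. Named genes were all 7 and, for each that passed the filter, the 1 gene with the highest Pearson r. The stage and location tests used edgeR 4.0.16 under R 4.3.3 (TMM, filterByExpr, glmQLFit, glmQLFTest) and Benjamini-Hochberg adjustment over all genes tested, with 4 residual degrees of freedom for stage and 2 for location. Fits without 1 library had fewer residual degrees of freedom. SE was the fold change over the root of F. DESeq2 1.42.0 was an alternative. Each stage had 1 pool per location. Stage p-values without a block are therefore set against the spread between pools of different locations, which may be technical in part. Location tests and the blocked stage fit use the spread left after stage and location, with 2 residual degrees of freedom. The stage fit with no low-count filter is an exception, as its p-values take little account of each gene's own spread. Whether the location fit with no filter shares this limit was not tested. Location numbers pair adults and larvae of a site, but deviations from the stage means correlated at only -0.04, 0.02 and -0.00 within locations 1, 2 and 3. Python 3.11.15 with scipy 1.17.1 gave Clopper-Pearson intervals at 95% and exact permutation tests. The scripts were tested on simulated data.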

Additional observations from a re-analysis of the deposited data

Results flagged for a closer look

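The stage difference of 2 markers ran in opposite directions at different locations. Each location had 1 adult and 1 larval pool, so the difference between locations was not tested. For Act-4, the adult level was 21.8 times the larval level at K1, and 0.440 and 0.236 of it at K3 and C. For beta-2 tubulin, the adult level was 22.6 times the larval level at K1 and 152 times at C, and at K3 it was at least 9.14-fold lower in adults.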

How the results depend on the processing

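Scaling (DESeq2 size factors, library totals) and the strand columns kept the direction of the stage difference for all 4 markers tested, and none of them passed there. Fruitless moved most with the strand, to 1.74 in the forward column and 3.24 in the reverse, against 2.47. The median of all genes was -0.29 and -0.53 on the log2 scale under the 2 scalings. DESeq2's test called 3 of the 4, beta-2 tubulin (4.57), myo-fem (3.57) and fruitless (2.63), and gave no p for Act-4. With no low-count filter 3 passed, beta-2 tubulin (4.43), myo-fem (3.39) and Act-4 (2.54). The p-values of that fit take little account of each gene's own spread between pools. With location as a replicate block 1 passed, myo-fem (2.69), and Act-4 turned to -0.24. Without 1 library, where a stage may hold 2 pools, the log2 fold change was 3.50 to 5.52 for beta-2 tubulin, 2.58 to 4.52 for myo-fem, -1.45 to 3.27 for Act-4 and 1.62 to 3.26 for fruitless, and 0 or 1 of them passed. The difference in mean CPM of Act-4 ran from -96.3 to 1176, and that in the share of beta-2 tubulin against Act-4 from -0.73 to 42.4 percentage points, lowest without the C adults. Genes called between stages numbered 972 with DESeq2, 811 with no filter and 276 to 356 without 1 library, against 495.

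Between locations, myo-fem and Act-4 passed with no low-count filter (edgeR adjusted p = 0.0308 and 0.0129), 2 of the members, where 0.753% of genes were called. How far the p-values of that fit take account of each gene's own spread between pools was not tested. Without 1 library, the adjusted p of myo-fem was 0.0324 to 1.00 and that of Act-4 0.000417 to 1.00, with 0 to 2 of the members called. Genes called numbered 11 with library totals, 2 with DESeq2, 67 with no filter, 0 with the forward column and 0 to 52 without 1 library, against 4. Each location fit without 1 library left a location with a single pool. Those fits thus cannot tell a difference between sites from the level of that pool. The causes of the changes between settings were not tested. The K3 adults had the fewest gene counts (3271618), where 3 counts are 0.917 CPM and lower levels would not be detected. They also had the fewest genes with a count (3305).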
